A study of Mus musculus with 6 samples.

Results

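Spt16 regions within 5 kb of a gene start were the subset of the deposited Spt16 region list whose middle lay 5000 bp or less from at least 1 annotated gene start, by the authors' own distances. They numbered 382 of 1253 regions (30.5%, 95% Clopper-Pearson interval 27.9 to 33.1). The other Spt16 regions comprised 412 inside a listed gene but over 5 kb from any start and 459 outside listed genes, of which 133 had no gene listed at all. Chromatin immunoprecipitation followed by sequencing (ChIP-seq), which counts the DNA fragments bound by a protein, was done on tet-ON Oct4 embryonic stem cells of the mouse strain C57BL/6, in which doxycycline switches on an added Oct4 gene. The cells were differentiated with retinoic acid and then given PBS, or doxycycline to induce Oct4. The groups used here were Spt16 at 10 h, Oct4 at 10 h, Jmjd1c at 10 h and input DNA at 10 h after doxycycline, all from cells that carry the inducible gene, while the libraries of 0 h were not analysed here. The promoter arrangement of the inducible gene and whether the line is 1 clone are not given in the sources used here, and since the assay reads DNA, cell type markers could not be checked. Each group was 1 library, so no difference between conditions could be tested, and every interval here covers counting error only.

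Spt16 is the large subunit of FACT, the histone chaperone that loosens and rebuilds nucleosomes ahead of and behind RNA polymerase II. FACT travels with polymerase along transcribed genes and also acts at DNA replication and at some regulatory elements. Oct4 is encoded by Pou5f1. It is a POU-domain transcription factor that maintains pluripotency, and it binds the octamer element. Jmjd1c belongs to the family of Jumonji proteins that includes histone H3 lysine 9 demethylases.

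Of the 382 regions, 26 spanned the deposited start of their nearest gene. For the 8 highest by authors' score with a promoter in the RefSeq table, the promoters are printed in order of score, to show the sequence at the starts that Spt16 covered (build GRCm38.p6, 250 bases before to 50 bases after the RefSeq start, 5′ to 3′ on the strand of the gene). Capitals mark matches to any of the 9 patterns listed further on, on either strand, or on the sense strand only for the TATA box. The positions are chr5:116591768-116592067 on the minus strand for Srrm4, chr7:99980409-99980708 (minus) for Rnf169, chr11:77893823-77894122 (minus) for Pipox, chr2:25180508-25180807 (plus) for Nrarp, chr9:74848187-74848486 (plus) for Gm16551, chr1:121087155-121087454 (plus) for B230209K01Rik, chr1:192835164-192835463 (minus) for A730013G03Rik and chr6:122707239-122707538 (plus) for Nanog.
Srrm4: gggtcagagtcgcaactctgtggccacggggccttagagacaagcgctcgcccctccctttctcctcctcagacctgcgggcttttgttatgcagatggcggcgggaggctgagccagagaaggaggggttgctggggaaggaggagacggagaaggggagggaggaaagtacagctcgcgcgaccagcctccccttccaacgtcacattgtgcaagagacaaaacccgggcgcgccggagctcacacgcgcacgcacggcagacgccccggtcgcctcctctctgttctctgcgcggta
Rnf169: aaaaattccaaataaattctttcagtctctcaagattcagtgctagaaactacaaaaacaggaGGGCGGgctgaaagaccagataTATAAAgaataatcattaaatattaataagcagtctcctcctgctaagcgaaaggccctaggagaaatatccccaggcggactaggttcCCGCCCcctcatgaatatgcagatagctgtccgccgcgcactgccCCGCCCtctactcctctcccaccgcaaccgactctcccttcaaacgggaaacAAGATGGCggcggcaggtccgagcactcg
Pipox: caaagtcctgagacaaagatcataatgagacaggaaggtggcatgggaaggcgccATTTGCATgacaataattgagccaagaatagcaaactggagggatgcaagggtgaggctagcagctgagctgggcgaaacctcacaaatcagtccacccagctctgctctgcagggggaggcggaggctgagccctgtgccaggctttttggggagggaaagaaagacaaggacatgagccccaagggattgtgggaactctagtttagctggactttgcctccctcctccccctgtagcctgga
Nrarp: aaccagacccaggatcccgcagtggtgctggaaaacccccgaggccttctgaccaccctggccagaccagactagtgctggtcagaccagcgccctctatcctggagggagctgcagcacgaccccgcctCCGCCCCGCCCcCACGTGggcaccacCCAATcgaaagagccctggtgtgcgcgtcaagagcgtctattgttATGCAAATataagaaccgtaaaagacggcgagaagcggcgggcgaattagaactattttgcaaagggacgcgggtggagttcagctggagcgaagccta
Gm16551: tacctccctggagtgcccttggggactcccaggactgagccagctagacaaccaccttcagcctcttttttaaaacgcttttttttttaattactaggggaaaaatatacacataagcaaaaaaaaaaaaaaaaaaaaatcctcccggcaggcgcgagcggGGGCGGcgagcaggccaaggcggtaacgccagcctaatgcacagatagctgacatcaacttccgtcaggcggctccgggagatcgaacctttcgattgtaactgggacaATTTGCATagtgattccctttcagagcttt
B230209K01Rik: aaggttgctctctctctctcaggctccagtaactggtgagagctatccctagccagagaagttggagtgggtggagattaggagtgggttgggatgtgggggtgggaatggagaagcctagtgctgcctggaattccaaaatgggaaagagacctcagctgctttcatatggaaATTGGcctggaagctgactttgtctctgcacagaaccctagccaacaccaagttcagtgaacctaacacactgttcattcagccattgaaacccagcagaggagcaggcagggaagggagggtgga
A730013G03Rik: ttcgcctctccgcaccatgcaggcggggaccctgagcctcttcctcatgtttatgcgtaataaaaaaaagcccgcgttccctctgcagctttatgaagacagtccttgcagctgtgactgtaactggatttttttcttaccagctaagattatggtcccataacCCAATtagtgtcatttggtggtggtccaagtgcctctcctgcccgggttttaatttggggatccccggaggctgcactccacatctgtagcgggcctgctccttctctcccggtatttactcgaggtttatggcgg
Nanog: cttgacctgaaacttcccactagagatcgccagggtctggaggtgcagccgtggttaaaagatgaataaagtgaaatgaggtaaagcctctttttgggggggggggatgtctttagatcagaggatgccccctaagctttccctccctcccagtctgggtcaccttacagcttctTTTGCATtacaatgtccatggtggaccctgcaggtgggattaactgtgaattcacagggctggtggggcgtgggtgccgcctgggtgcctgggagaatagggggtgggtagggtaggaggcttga
The Srrm4 promoter held none of the patterns, and Rnf169 held GC boxes, a TATA-like stretch and the YY1 letters. Pipox, Nrarp and Gm16551 each held a complete octamer, ATGCAAAT or its reverse complement, while Nanog held only its first 7 letters, reversed. The noncoding B230209K01Rik and A730013G03Rik held a CCAAT box and no octamer. The Spt16 regions are given on mm9 and these sequences on GRCm38.p6, so the 2 cannot be laid on each other base by base, and the RefSeq start may differ from the deposited one. Where a gene had several starts in the RefSeq table, the outermost was used, as for Nanog, which had 2.

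These 8 regions held 39 to 78 Spt16 reads in the region's best window, above the median of 35 over all 382, and 5 of the 8 had 0 input reads. They were picked by the authors' score, which is computed from these reads, so high Spt16 and low input reads follow in part from the choice. Srrm4, a splicing regulator of neurons, had 67 Spt16 reads, 0 input reads and 19 Oct4 reads. Rnf169, a ubiquitin-binding protein of the DNA damage response, had 71 Spt16 reads, 1 input read and 21 Oct4 reads. Pipox, a peroxisomal oxidase, had 78 Spt16 reads, 4 input reads and no Oct4 region. It had the most Spt16 reads of the 8 but also the most input reads. Nrarp, a feedback inhibitor of Notch signalling, had 48 Spt16 reads and 0 input reads, and the noncoding Gm16551 had 47 and 0, both without an Oct4 region. Nanog, a homeobox factor at the core of the pluripotency network, had 51 Spt16 reads, 2 input reads and 24 Oct4 reads. B230209K01Rik had 41 Spt16 reads, 0 input reads and 18 Oct4 reads, and A730013G03Rik had 39 and 0 without an Oct4 region.

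Spt16 signal was low at most start-proximal regions and high at a few. The median region held 35 Spt16 reads in its best window, with quartiles of 30 and 45.8 and a range from 26 to 199. Scaled to the library total this was 0.954 RPM, where RPM gives reads relative to the library's total reads (95% order-statistic interval of the median 0.927 to 1.01). The median width was 288 bp (287.5 before rounding; range 170 to 1234). Every region had passed the authors' threshold against input (100% of the Spt16 list), so enrichment chose the regions and is a description only. No input read fell in the best window of 277 regions (72.5%, Clopper-Pearson interval 67.7 to 76.9), against 68% over the whole Spt16 list. Where input was 0, folds are lower bounds set by 3 reads of the input library, which is 0.206 RPM. Reads were even between the strands, with a median of 50% on the plus strand and a range of 37.5 to 60% over the 382 regions.

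Depth was 36669596 reads for Spt16, 14592994 for input, 15543450 for Oct4 and 26736842 for Jmjd1c. The Spt16 list held rank numbers up to 1302, of which 49 were absent and not analysed here.

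The highest-scoring start-proximal regions stood far above the median of 35 Spt16 reads, which follows in part from a score computed from the reads. A region 1400 bp upstream of a SNORA17 gene, which encodes a small nucleolar RNA, had 199 Spt16 reads against 2 input reads (39.6-fold, 95% counting interval 10.8 to 329). Pou5f1, the endogenous Oct4 gene, had 170 Spt16 reads and 0 input reads 2009 bp upstream of its start, at chr17:35640688-35641257 (mm9). Rif1, a regulator of replication timing and of DNA repair, also had 170 reads and 0 input reads, 560 bp upstream of its start at chr2:51927524-51928069. Both were at least 22.6-fold over the input floor. These were the 3 highest regions by score, and all lay upstream of their start.

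Below them came a group of regions with weaker or less clean signal. Tmem181a had 146 Spt16 reads and 5 input reads 2764 bp upstream (11.6-fold, 4.87 to 36.3). Vamp1, a synaptic vesicle fusion protein, had 117 and 5 at 294 bp upstream (9.31-fold, 3.88 to 29.2). A region 1121 bp downstream of a Y_RNA gene, which is also 1742 bp upstream of the germline and naive pluripotency gene Dppa3, had 110 and 3. For these 3 the input was itself high for the list, whose regions held at most 5 input reads. Lrrn2 had 84 Spt16 reads 1131 bp upstream and Dido1 had 75 at 611 bp inside the gene, both with 0 input reads. A U4 gene had 109 Spt16 reads and 2 input reads in a region over its start, and a U5 gene had 75 and 0 at 552 bp downstream. U4 and U5 are small nuclear RNAs of the spliceosome, so the 10 highest regions mixed coding and noncoding genes.

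**Figure D1:**
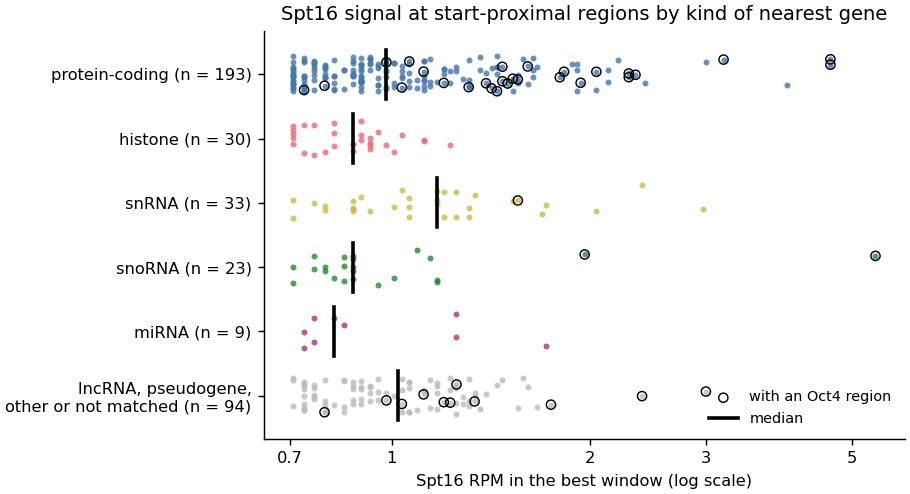
Spt16 RPM (reads scaled to the library total) in the best window of each of the 382 start-proximal regions (log axis), grouped by the kind of nearest gene; bars are medians and circles mark regions that overlap an Oct4 region. Values above 3 RPM were at protein-coding genes and 1 snoRNA gene, and histone regions did not exceed 1.23 RPM and had no circle.

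Where did the regions lie relative to the start? Of the 382, 226 had their middle downstream of the nearest start (59.2%, 54.0 to 64.1) and 156 upstream, and the median middle was 473 bp downstream (order-statistic interval 229 to 571). Within 500 bp of a start lay 78, within 1000 bp 160 and within 2000 bp 242. By extent, 141 lay wholly upstream, 26 over the start, 124 inside the gene or across its far end and 91 wholly beyond that end. The median distance without regard to side was 1329 bp. The nearest were at Cryzl1, with a middle 8 bp from the start, Pipox at 21 bp, Snord83b at 26 bp and Nanog at 32 bp. Gm10295, Gm16551, Mir293, Nrarp, 4933439F18Rik and 2310028H24Rik followed, at 44 to 77 bp. These 10 regions held between 27 Spt16 reads (Cryzl1) and 78 (Pipox), and none was among the 10 highest by score.

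Histone and small nuclear RNA genes supplied much of the downstream side. Middles 0 to 1000 bp downstream made up 27.2% of the 382 regions (lower limit 22.8), and 52 of those regions were nearest to a histone or small nuclear RNA gene. On the upstream side, 4 of the 56 lying 0 to 1000 bp away were. Without regions at histone and small nuclear RNA genes, a subset chosen after seeing the data, the share downstream was 53.3% (47.7 to 58.9) and the median middle lay 160 bp downstream (-84 to 501). Protein-coding genes other than histones were nearest to 193 regions, with 94 upstream, 14 over the start, 75 inside and 10 past the end. Of these 193, 91 had a middle downstream (47.2%, 39.9 to 54.4), so the sides were nearly even. At the limit of 5 kb, the last regions inside were at CR956641.1 (4925 bp, 28 reads), Ido2 (4983 bp, 29 reads) and Gm7361 (4986 bp, 26 reads). The first outside were at Nt5e (5030 bp, 34 reads), Kat2b (5041 bp, 76 reads) and Inmt (5069 bp, 26 reads).

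**Figure D2:**
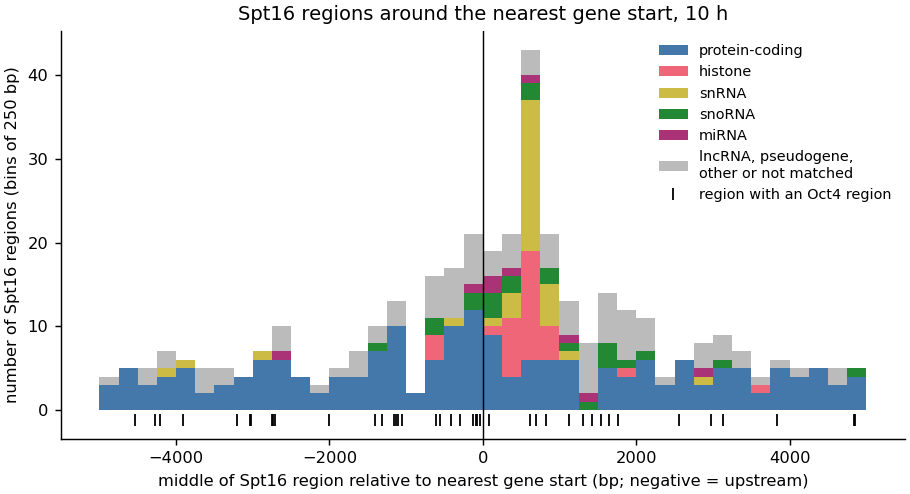
Number of start-proximal Spt16 regions by distance of the region's middle from the nearest gene start, in bins of 250 bp, with negative values upstream and colours for the kind of gene; black ticks below 0 mark the 41 regions that overlap an Oct4 region. The tall bins from 250 to 1000 bp downstream are made up largely of histone and small nuclear RNA genes, and Oct4 ticks are rare there.

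Genes of the pluripotent state were often marked. Of 45 genes that regulate or mark the pluripotent state, 17 had a start within 5 kb of a Spt16 region (37.8%, 23.8 to 53.5), against 1.3% of 21896 protein-coding genes. Their 19 gene and region pairs lay upstream of the start in 14 cases and downstream in 5. For 9 of the 17 genes a region also overlapped an Oct4 region, where 10.7% of the 382 regions and 13.4% of all Spt16 regions did. The first counts genes and the others are shares of regions. Of the 17 genes, 15 had a region at or above the median score of all Spt16 regions, where 22.8% of regions had an Oct4 region. For 5 of the 17 the region lay within 1 kb of the start. The lists were chosen with earlier results of these data known, so these shares are descriptions.

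Several transcription factors and their regulators were among the 17. Sox2, a SOX-family factor that pairs with Oct4 at many sites, had 89 Spt16 reads and 2 input reads 4050 bp downstream of its start, past the end of the gene, and no Oct4 region there. Klf2, a Krüppel-like factor of the naive state, had 54 Spt16 reads, 0 input reads and 16 Oct4 reads 2713 bp upstream. Mycn, a Myc family factor, had 50 and 0 at 1407 bp upstream, without an Oct4 region. Utf1, a chromatin-associated factor of undifferentiated cells, had 60 and 1 at 1884 bp downstream, and Id3, an inhibitor of differentiation factors, had 70 and 1 at 3397 bp downstream, both past the gene's end and without an Oct4 region. Thus Sox2, Id3 and Utf1 were marked behind the gene, whereas Pou5f1, Klf2, Mycn and Nanog were marked at or before the start.

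The pluripotency list also holds genes of Nodal signalling, which acts through Smad proteins to sustain or pattern early embryonic cells. Lefty1, a secreted Nodal inhibitor, had 2 regions, one 1164 bp upstream with 84 Spt16 reads, 1 input read and 34 Oct4 reads, and one 391 bp downstream with 29 Spt16 reads, 0 input reads and no Oct4 region. Lefty2, its neighbour and paralog, had 53 Spt16 reads, 0 input reads and 15 Oct4 reads 4272 bp upstream. Nodal itself had 53 and 0 at 1887 bp upstream without an Oct4 region. Its coreceptor Tdgf1 had 26 and 0 at 1720 bp upstream, which is the lowest read number in the list. Foxh1, the DNA-binding partner of Smad proteins in this pathway, had 44 Spt16 reads, 0 input reads and 15 Oct4 reads in a region over its start; it was not on the preset list and is named for its Oct4 region. These genes were not a list of their own, so no share is given for them.

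Repressors of the list included Rest, which silences neuronal genes outside neurons, and Phc1, a Polycomb subunit. Rest had 66 Spt16 reads, 0 input reads and 22 Oct4 reads 3200 bp upstream. Phc1 had a region of 38 and 0 at 641 bp upstream and another of 57 and 4 at 1660 bp upstream, both without Oct4. More reads at the second Phc1 region came with more input reads, so its ratio to input was 5.67 (2.10 to 21.5) and that of the first at least 5.04. Fbxo15, a stem cell marker, had 36 and 0 with 19 Oct4 reads 604 bp upstream, and Dppa5a had 37 and 1 at 3203 bp downstream.

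**Figure D3:**
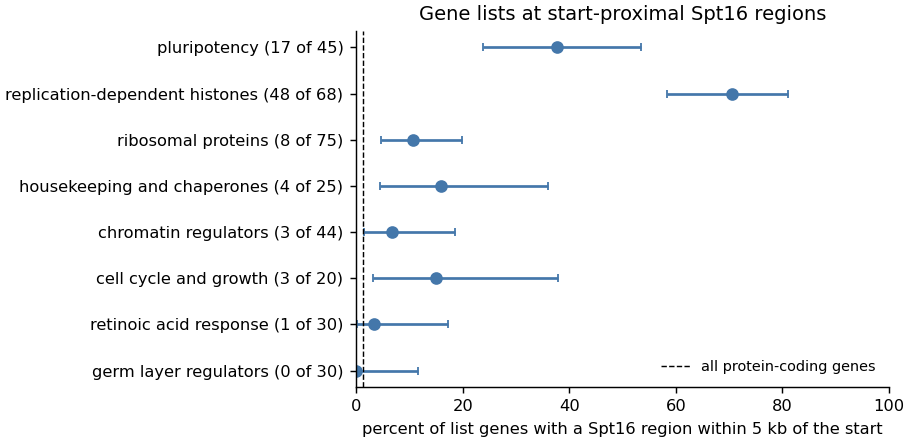
Percent of the genes of each preset list whose start lies within 5 kb of a Spt16 region, with 95% Clopper-Pearson intervals; the dashed line is the share of all 21896 protein-coding genes, 1.3%. Histone genes (48 of 68) and pluripotency genes (17 of 45) lie far to the right of the line, while the intervals of retinoic acid genes (1 of 30) and germ layer regulators (0 of 30) include it.

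Replication-dependent histone genes, which are transcribed in S phase and lie packed in clusters, had the largest share of marked genes of the 8 lists. Of 68, 48 had a start within 5 kb of a Spt16 region (70.6%, 58.3 to 81.0), 36 of them within 1 kb. The 30 regions whose nearest start was a histone gene lay on chromosomes 13 (23 regions), 3 (6) and 6 (1). Of these, 27 had their middle downstream of the start, at a median of 575 bp (range 234 to 3747), and 21 lay inside the gene or across its end by position. Histone genes are short, with a median length of 687 bp here (686.5 before rounding), so these middles fell near the far end of the transcribed part. Over all histone gene and region pairs within 5 kb the sides were less uneven, with 46 of 76 downstream and 30 upstream. The region 491 bp downstream of Hist1h2bk, for example, lay 669 bp upstream of Hist1h2ah. The side given for the 30 regions thus holds for the nearest start only.

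Signal at histone genes was low and lay close above the list's lowest number of 26 reads, which cuts the range from below. The 30 regions held a median of 32 Spt16 reads (range 26 to 45), and 27 had no input read (90.0%, 73.5 to 97.9). The median was 35 reads over all 382 regions and also 32 at small nucleolar RNA genes, so a low median was not particular to histone genes. Hist1h1a, a linker histone gene, had the most, with 45 Spt16 reads and 0 input reads 325 bp downstream of its start. Hist2h3c1 followed with 41 and 0 at 502 bp downstream, in a region that also lay 518 bp downstream of Hist2h2aa1. Hist2h2bb had 38 and 1 at 461 bp downstream and 32 and 0 at 531 bp upstream. None of the 30 overlapped an Oct4 region, against 10.7% of the 382 regions and 13.4% of all Spt16 regions. The exact upper limit is 11.6%, so the share of the 382 is not excluded. Their median score was 44.1, against 46.8 for the 382, and of the 100 lowest-scoring of the 382 only 1 had an Oct4 region. The part of score in this count was not tested. Of the 30, 25 had another Spt16 region within 10 kb (83.3%, 65.3 to 94.4), and a region can therefore be counted for several histone genes. Histone copies are near identical in sequence, and the sources used here do not say how reads that map to several places were treated, so reads may be split or shared among copies.

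Small nuclear RNA genes, which encode the RNA parts of the spliceosome and, as U7, of histone pre-mRNA processing, were nearest to 33 regions. Of these, 29 had a middle downstream of the start (87.9%, 71.8 to 96.6) and 27 lay wholly past the gene's end, at a median of 525 bp from the end. The genes themselves have a median length of 164 bp. All 14 regions at U1 genes lay downstream, 260 to 1023 bp from the start, with 26 to 88 Spt16 reads. All 7 at U2 genes (628 to 2975 bp, 32 to 57 reads) and all 4 at U5 genes (408 to 592 bp, 32 to 75 reads) did so too. U6 genes, which are transcribed by RNA polymerase III rather than II, had 3 regions from 3842 bp upstream to 107 bp downstream, and only 1 of the 3 had a middle downstream. Sides were also mixed at U4 genes (1 of 2 downstream) and at U7 genes (1 of 2), so this was not particular to U6. Numbers this small allow no comparison by polymerase. The 33 regions were wider than most, with a median of 385 bp (298 to 468) and 43 reads (34 to 46). The U genes also have near-identical copies, with the same limit on read assignment as for histones.

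Small nucleolar RNA genes guide modification of ribosomal RNA and mostly lie in introns of host genes. They were nearest to 23 regions, 18 of them with the middle downstream and 2 with an Oct4 region. One region of 40 Spt16 reads and 0 input reads lay within 5 kb of 11 starts, 10 on the plus strand, including Gas5 and its SNORD genes. Another, of 32 and 0, lay within 5 kb of 10 starts around Snhg1, and a second at the Gas5 cluster, of 35 and 0, within 5 kb of 9. Thus the most crowded regions lay in host genes of small nucleolar RNAs. In all, 134 of the 382 regions had starts of 2 or more genes within 5 kb (35.1%, 30.3 to 40.1), and the 382 regions named 538 gene identifiers.

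The microRNA cluster Mir290 to Mir295, which is expressed in early embryonic and embryonic stem cells, held 5 regions, the most for any gene. They had 63, 46, 46, 28 and 27 Spt16 reads, with 1 input read at 1 of them and 0 at the rest. The first spanned chr7:3217877-3219111 (mm9), and its 1234 bp made it the widest region of the whole Spt16 list. No region of the cluster overlapped an Oct4 region, nor did any of the 9 regions at miRNA genes. The upper limit for those 9 is 33.6%, which includes the 10.7% of all 382 regions. Of the 13 mature microRNAs RefSeq gives for the 7 genes, 3 of the 3p forms share the seed AAGUGCU (bases 2 to 8). A pair of 3p forms differs from them in its last seed base. Among the 5p forms, 3 share CUCAAAC, another pair differs from these in the last base, and 2 share AUCAAAG. Only the 5 3p forms with the first pattern are shown, as an example, with the seed in capitals. They lie on the plus strand of chromosome 7 of GRCm38.p6.
mmu-miR-291a-3p: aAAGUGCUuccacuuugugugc
mmu-miR-294-3p: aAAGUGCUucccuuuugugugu
mmu-miR-295-3p: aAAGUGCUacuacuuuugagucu
mmu-miR-290a-3p: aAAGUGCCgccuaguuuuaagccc
mmu-miR-291b-3p: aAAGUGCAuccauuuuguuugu
The mmu-mir-703 gene had 3 regions of 28 to 31 reads, and 1 further miRNA gene, Mir1192, had 1 region of 27 reads. The long noncoding RNA Malat1, abundant in nuclei, had 3 regions of 32 to 39 reads from 335 to 1742 bp downstream of its start. Snord14c, inside the chaperone gene Hspa8, had 3 regions of 26 to 43 reads. The Mir290 cluster, mmu-mir-703, Malat1 and Snord14c thus each held 3 or more regions, none of them among the 10 highest by score.

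Ribosomal protein and housekeeping genes were marked mostly downstream of the start. Of 75 ribosomal protein genes, 8 were marked (10.7%, 4.72 to 19.9), against 1.3% of all protein-coding genes, with 9 of 10 gene and region pairs downstream; Rps18, for example, had 41 Spt16 reads and 2 input reads 4619 bp downstream and 34 and 0 at 1264 bp. Of 25 housekeeping and chaperone genes, 4 were marked (16.0%, 4.54 to 36.1, against the same 1.3%), all downstream of the start. These were Hspa8 (43 and 1 at 2800 bp), Hsp90ab1 (37 and 1 at 3015 bp), Gapdh (36 and 1 at 1011 bp) and Actg1 (29 and 0 at 1074 bp). No region of either list overlapped an Oct4 region, where 10.7% of the 382 start-proximal regions did, and these regions are too few to be set apart from that share. Ribosomal protein genes have many processed copies elsewhere in the genome, which touches the assignment of their reads too.

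The remaining lists had 0 to 3 marked genes each, to be read against 1.3% of all protein-coding genes. Chromatin regulators had 3 of 44 marked (6.82%, 1.43 to 18.7), namely Kdm3b, a relative of Jmjd1c (75 Spt16 reads and 4 input reads, 1806 bp downstream), Jmjd1c itself (56 and 3, 4355 bp downstream, in a region nearer to Reep3) and Phc1. Cell cycle genes had 3 of 20 (15.0%, 3.21 to 37.9), namely the tumour suppressor Trp53 (78 and 4, 1699 bp downstream), Mycn, which is also on the pluripotency list, and Ccnd3 (33 and 0, 1219 bp upstream). Of 30 retinoic acid genes only Aldh1a2, which makes retinoic acid, was marked (33 and 0, 1539 bp downstream), a share of 3.33% (0.0844 to 17.2). None of 30 germ layer regulators was, with an exact upper limit of 11.6%. Both intervals include 1.3%, so neither list stood apart from the background. Trp53 and Kdm3b had high read numbers beside 4 input reads each, a number few regions reached.

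Did Oct4 lie at the same sites? Of the 382 regions, 41 overlapped an Oct4 region by at least 1 bp (10.7%, 7.81 to 14.3), against 13.4% of all Spt16 regions. The share was 12.6% (9.57 to 16.2) in gene bodies far from a start and 16.3% (13.1 to 20.05) outside listed genes. The interval of the start-proximal share overlaps both. The median Spt16 read number was 54 where Oct4 was listed and 34 at the 341 regions without it. By authors' score, 12 of the 20 highest start-proximal regions had an Oct4 region, 29 of the 100 highest and 1 of the 100 lowest. Among the 187 at or above the median score of the whole Spt16 list the share was 20.3% (14.8 to 26.8), against 22.8% of all regions there. The weakest Oct4 region listed had 15 reads, or 0.965 RPM, which is above the median Spt16 RPM of these regions. Oct4 at the RPM of the median Spt16 region here would therefore have been lower than in any Oct4 region listed. The authors also removed 10 regions found in uninduced cells from the Oct4 list, per the file headers.

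Oct4-marked regions lay mostly before or at the start. Of the 141 wholly upstream regions 21 had an Oct4 region (14.9%, 9.46 to 21.9), of the 26 over the start 5 (19.2%, 6.55 to 39.4), of the 124 inside the gene 6 (4.84%, 1.80 to 10.2) and of the 91 past the end 9 (9.89%, 4.62 to 17.9). At protein-coding genes other than histones, 27 of 193 had one (interval 9.43 to 19.7%). Split by position, this was 18 of 94 upstream, 4 of 14 over the start, 4 of 75 inside and 1 of 10 past the end. The lower share inside genes was thus present without histone and small nuclear RNA genes. Spt16 read numbers moved with it, with medians of 38 upstream and 33 inside the protein-coding gene, and their part in the result was not tested.

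By Oct4 score the highest were Pou5f1 (40 Oct4 reads), the SNORA17 region (50), Dido1 (30), Lefty1 (34), Vamp1 (40), Rif1 (28), Gprc5b (27), a U3 gene (26), Nid2 (29) and Lrrn2 (23). Input reads in the Oct4 windows were 3 at SNORA17 and at Vamp1, 1 at Lefty1 and at Nid2, and 0 at the other 6. Nid2 encodes a basement membrane protein and Gprc5b an orphan receptor. Signalling genes appeared lower down, among them Vegfc, a lymphatic growth factor (86 Spt16 and 31 Oct4 reads, 1059 bp upstream), and Dll1, a Notch ligand (55 and 15, 3913 bp upstream). Both were named after their values were seen.

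At the 41 shared regions Spt16 RPM was 1.16 times Oct4 RPM in the median (order-statistic interval 1.05 to 1.36; range 0.647 to 2.57), against 1.14 over all 168 shared regions. Spt16 RPM exceeded Oct4 RPM beyond the counting interval at 4 of the 41, where 12.5% of the 168 did, and fell below it at 0, where 1.19% did. The 4 were Rif1, with a ratio of 2.57 (1.72 to 3.99), Pou5f1 at 1.80 (1.27 to 2.61), SNORA17 at 1.69 (1.23 to 2.35) and the Dppa3 region at 1.61 (1.06 to 2.51). Lefty1 and Dido1, by contrast, had ratios near 1, at 1.05 (0.695 to 1.61) and 1.06 (0.685 to 1.68). Nanog had 0.901 (0.544 to 1.53), and the lowest was Gpx4, a lipid peroxidase, at 0.647 (0.351 to 1.22). Only regions present in each list enter, and the fewest reads there were 15 for Oct4 and 26 for Spt16, which limits the ratios that can be seen. Each ratio sets the best window of the Spt16 region against that of the overlapping Oct4 region, which need not coincide. The yields of the antibodies are not known, so the ratios do not measure relative occupancy of the proteins.

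**Figure D4:**
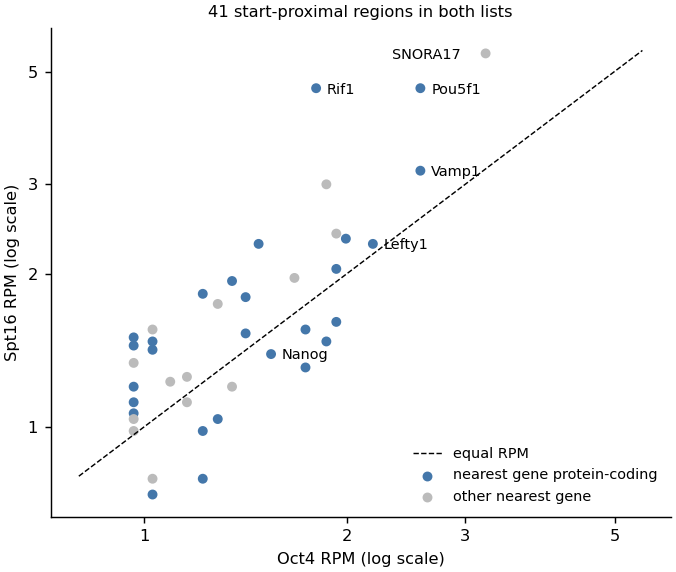
Spt16 RPM against Oct4 RPM at the 41 start-proximal regions in both lists (log axes), with protein-coding nearest genes in blue; the dashed line marks equal values. Rif1, Pou5f1 and SNORA17 lie above the line beyond their counting intervals, and Nanog and Lefty1 lie close to it.

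Jmjd1c regions overlapped 2 of the 382 (0.524%, 0.0635 to 1.88), against 1.12% of all Spt16 regions. They were Pou5f1, with 24 Jmjd1c reads and 0 input reads, and Rif1, with 25 and 0. Both also had an Oct4 region.

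What did the promoters hold? Of 48 protein-coding genes (histones included) with a start within 500 bp of a region's middle, 41 had a promoter in the RefSeq table. The 9 patterns were searched in these and in all 17491 protein-coding promoters of the table, each gene entering by its outermost start only. The octamer ATGCAAAT, the element bound by Oct4 and other POU factors and known from histone H2B promoters, was in 8 of 41 (19.5%, 8.82 to 34.9), against 1.72% of all. Its first 7 letters, ATGCAAA, a pattern added after seeing the data that includes every octamer, were in 24.4%, against 4.17%. The other shares were 53.7% against 46.3% for the GC box (GGGCGG), 48.8% against 39.2% for the CCAAT box (CCAAT), 17.1% against 8.99% for the TATA box (TATAAA, sense strand only), 22.0% against 11.9% for the ETS letters (CCGGAAG), 12.2% against 3.21% for YY1 (AAGATGGC) and 9.76% against 7.91% for the E-box (CACGTG). The NRF1 site was in 0 of 41, against 1.33%. All but the TATA box were searched on both strands. Median observed over expected CpG was 0.779 in the 41 promoters and 0.577 over all. The intervals of the octamer, of its first 7 letters (12.4 to 40.3%) and of YY1 (4.08 to 26.2%) lay above the share of all promoters, and those of the other 6 patterns included it.

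Octamer promoters lay close to the Spt16 regions. By distance from the start to the nearest region middle, the octamer was in 8 of 41 promoters at 0 to 500 bp, 5 of 46 (10.9%, 3.62 to 23.6) at 500 to 1000 bp, 2 of 45 (4.44%, 0.543 to 15.1) at 1000 to 2000 bp and in none at 2000 to 5000 bp (upper limit 3.48%). Where the region covered the start, it was in 4 of 13 (30.8%, 9.09 to 61.4). Without histone genes, whose promoters often carry it, the share at 0 to 500 bp was 5 of 33 (15.2%, 5.11 to 31.9). These distance classes and the subset without histones were chosen after seeing the data.

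The 5 genes were Cryzl1 (27 Spt16 reads), Pipox (78), Nrarp (48), Opa3 (31) and Gadd45g (52), of which Gadd45g, a growth arrest and stress gene, had an Oct4 region. Histone genes with the octamer within 500 bp were Hist2h2bb, Hist1h2ab and Hist1h2bk, with 38, 26 and 26 Spt16 reads and no Oct4 region. The remaining ones, at 600 to 1846 bp, were Hist1h2bg, Prrc2a, Hist1h2ah, Hist1h2ae, Refbp2, Aldh1a2 and Hist1h2bb. A match describes letters in a window of 300 bases and does not show a bound site.

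**Figure D5:**
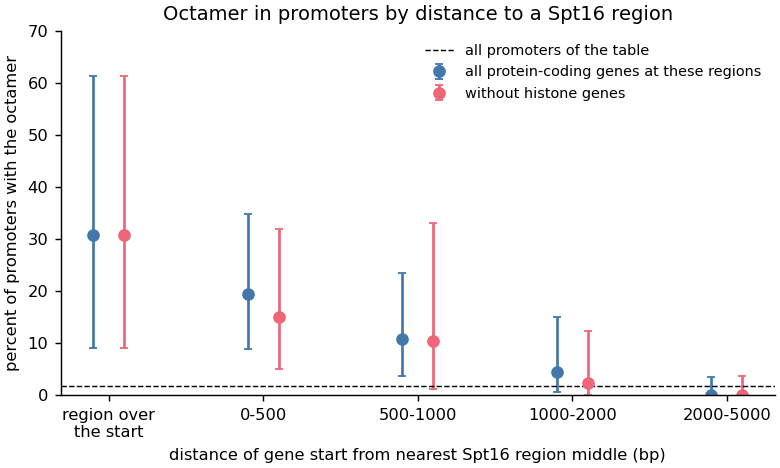
Percent of protein-coding promoters that hold the octamer, by distance of the gene start from the nearest start-proximal Spt16 region's middle, with 95% Clopper-Pearson intervals, for all genes and without histone genes; the first class, genes whose start lies under a region, is not separate from the others. The dashed line is the share over all promoters of the table, 1.72%, and the shares fall from 4 of 13 under a region to 0 beyond 2000 bp.

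How did these regions compare with the other Spt16 regions? Their median of 0.954 RPM (0.927 to 1.01) was slightly lower than the 1.04 RPM (0.982 to 1.06) of gene body regions and of regions outside genes, and the intervals overlapped. Median widths were 287 and 290 bp in those other groups. The share without an input read, 72.5%, was above 65.8% (61.0 to 70.4) in gene bodies and 66.2% (61.7 to 70.5) outside genes, with overlapping intervals. Start-proximal regions had another Spt16 region within 10 kb more often, at 24.1% (19.9 to 28.7) against 6.89% (5.30 to 8.78) of the 871 others. This closeness was highest near miRNA genes (8 of 9) and histone genes (25 of 30), was 60.6% at small nuclear RNA genes, and was 9.84% (6.03 to 14.9) at protein-coding genes. The 8 were the 5 regions of the Mir290 cluster and the 3 at mmu-mir-703, each close to others of its own locus, so they do not describe miRNA genes at large. Regions of 1 library are not replicates, so none of these differences was tested.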

How the data were processed

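ChIP-seq of Spt16, Oct4 and Jmjd1c and input DNA at 10 h came from 1 library each. Reads were handled with CASAVA 1.4 and Bowtie on mm9, per the submitters' processing notes; the region caller, its version and the treatment of multiply mapping reads are not given in the sources used here. Per the file headers, the authors kept regions with a Q value score of at least 13 and a log2 ratio of at least 1, taken with 1 added to each count. The deposited tables give whole-number read counts per strand in the best window of each region, which were summed here and divided by the library totals in the file headers to give RPM. The authors' score, which in the deposited tables is minus 10 times the log10 of a binomial p-value, was used only to rank. The deposited gene table gives distances in bp from region middle to gene start; for every listed entry this equalled the distance recomputed from its coordinates.

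Members, gene lists and patterns were chosen with earlier results of these data known. Genes named were the 10 regions highest in score, the 10 nearest a start, 3 on each side of the limit, those with a Jmjd1c region, 10 by Oct4 score, up to 6 per list, up to 6 with several regions and up to 5 with most starts; further ones were named after their values were seen. Classes follow the nearest gene's symbol and RefSeq biotype (GRCm38.p6, names only); 44 regions had a nearest symbol without a match and are in no class.

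Shares have exact Clopper-Pearson intervals, ratios exact binomial intervals, and medians order-statistic intervals, all at 95%, and without molecular identifiers they cover counting error only. Overlap required at least 1 bp. Alternatives were distances of 1000, 2000 and 10000 bp, distance from the region edge, protein-coding starts, higher scores, autosomes, and other overlap rules. Code was tested on simulated data. Figures used matplotlib 3.10.9, tables pandas 2.3.3 and intervals scipy 1.17.1 with numpy 2.4.6, under Python 3.11.15.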

Additional observations from a re-analysis of the deposited data

How the results depend on the processing

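Of 74 alternative values, 59 stayed within the main value's interval, or within 1.5 times it for a count, and 15 moved. A change of sign was checked for 1 value only, the median signed distance without histone and small nuclear RNA genes, which kept its sign. With starts within 2000 and 1000 bp the regions numbered 242 and 160, the pluripotency genes 10 and 5, and the share with 2 or more starts was 29.3% and 23.1%; at 1000 bp the Oct4 share was 7.50%. With 10000 bp the share with 2 or more starts was 42.7%, and with protein-coding starts only 18.8%. At or above the median score of all Spt16 regions there were 187 regions, with a median of 1.20 RPM, a width of 361 bp and an Oct4 share of 20.3%; the score is computed from the reads, so the higher RPM follows from its construction. Without histone and small nuclear RNA genes the median signed distance was 160 bp and the share downstream 53.3%. The cause of the other changes was not tested. No paired analysis was possible because each group holds 1 library, which also leaves no replicate to omit. The fewest reads of a listed Oct4 region were 15, in a library of 15543450 reads, and the part of depth in the Oct4 shares was not tested. Input reads of 0 to 5 limit every fold.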
